A study of Danio rerio with 49 samples.

Results

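At the shield stage of zebrafish development, MZrlig1 embryos were compared with wildtype embryos. The comparison took the libraries by their column labels, K3a, K3b and K3c for MZrlig1 and W3a, W3b and W3c for wildtype, and thus used 6 of 49 libraries, 3 per genotype. MZrlig1 embryos are maternal-zygotic mutants of rlig1, so the gene was mutated in the mother's germ line, which stocks the egg, and in the embryo's own genome. The allele, the strain of either line and whether libraries came from separate clutches are not given in the sources used here. Each p-value of the fits below sets the genotype difference against the spread among pools of the same genotype. Genotype therefore cannot be told apart from line or clutch. Both genotypes were spawned naturally, raised in the dark at 28 °C and staged by morphology, and each library was made from poly(A)-enriched RNA of 10 pooled whole embryos. The study followed both genotypes over 6 stages.

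The product of rlig1, RNA ligase 1, joins broken RNA ends and is known mainly from work on human cells. The shield is a thickening of the gastrula margin that marks the dorsal organizer, the signalling centre that sets up the body axis. At this stage the embryo runs largely on its own genome, most maternal mRNA has been cleared, Nodal, BMP, Wnt and FGF signals pattern the germ layers, and a squamous enveloping layer rich in keratins covers the cells.

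The targeted gene, RLIG1 (ENSDARG00000045785), was not detected in MZrlig1, with 0 counts in each of the 3 libraries, against 32, 25 and 19 counts in wildtype libraries a, b and c, which is 2.21, 1.36 and 1.34 counts per 1000000 counts of the library (CPM). A count of 0 allows a level of up to 3 counts, 0.185 to 0.210 CPM in the MZrlig1 libraries, a limit that covers counting error only. The fall was called (defined below), though not without wildtype library a or b. Total counts lay between 14193069 and 18355308 over the 6 libraries. The libraries of one genotype were less alike in MZrlig1: the median standard deviation of log2(CPM + 0.5) over 14903 genes was 0.336 in MZrlig1 and 0.168 in wildtype, and Spearman correlations between libraries of one genotype, across genes, were 0.946 to 0.965 in MZrlig1 and 0.978 to 0.987 in wildtype. No pair of libraries agreed within sampling noise.

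Wildtype library c stood apart for markers of cell types that form only after gastrulation. Of 24 such genes found in the files, 19 were highest in wildtype library c. The lens crystallin gene crygm2d1 had 13, 2 and 3 counts in MZrlig1 libraries a, b and c, against 1, 0 and 206 counts in wildtype. The pancreatic protease gene prss1 had 11, 4 and 5 counts in MZrlig1, against 1, 1 and 186 in wildtype, and the liver gene fabp10a had 0 counts in every MZrlig1 library, against 0, 0 and 32 in wildtype. MZrlig1 library a was second for several of these genes. Counts of called genes are therefore also given without wildtype library c.

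Of 14903 genes with enough counts, 573 (3.84%) passed an adjusted p of 0.05 in the edgeR quasi-likelihood test; such genes are named called below. MZrlig1 embryos had higher levels of 314 called genes (2.11%) and lower levels of 259 (1.74%). Differences were mostly larger than 2-fold: 263 of the called higher genes and 198 of the called lower ones exceeded that size, and 124 and 79 exceeded 4-fold. In all 573 the 3 MZrlig1 values lay wholly above or below the 3 wildtype values, which also held for 26.1% of all genes tested. Fewer genes were called whichever wildtype library was left out: 130, 85 and 173 without wildtype library a, b or c. Those counts were 790, 460 and 705 without MZrlig1 library a, b or c. Without wildtype library c, 166 of the 173 were among the 573. Across the 12 alternative settings, 72 of the 573 genes passed in every one, 45 higher and 27 lower.

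**Figure D1:**
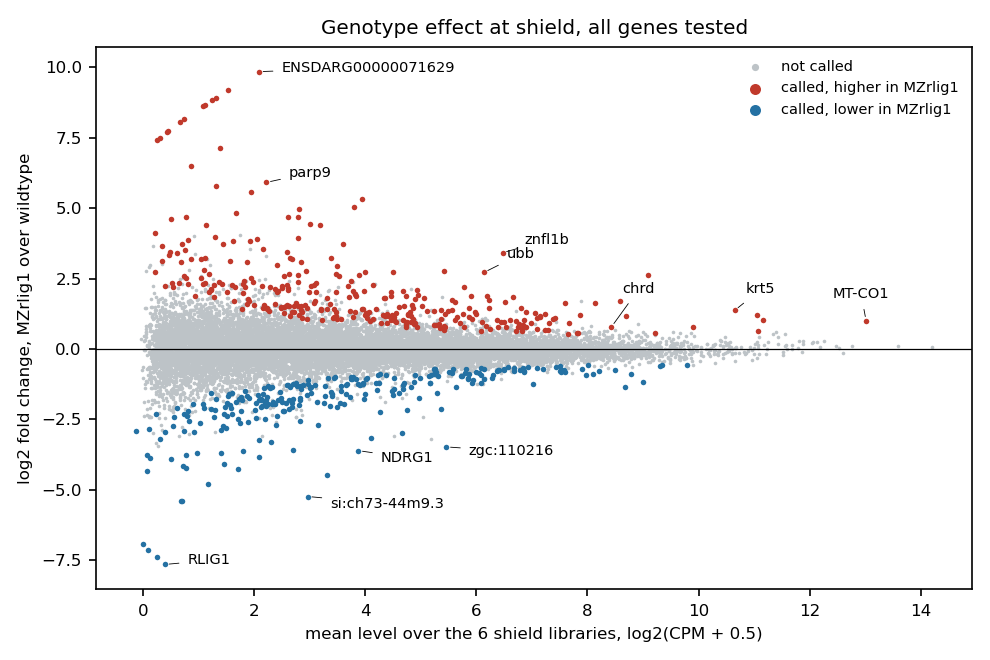
Log2 fold change of MZrlig1 over wildtype (vertical axis) against the mean level over the 6 shield libraries (horizontal axis, log2 of CPM + 0.5) for 14903 genes; red points are called higher in MZrlig1, blue points called lower, grey points not called. RLIG1 is the lowest point and ENSDARG00000071629 the highest; both have 1 genotype at 0 counts, so their fitted values are not bounds.

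The highest fitted value belonged to a gene without a name in the files. ENSDARG00000071629 had 7.83, 7.28 and 7.36 CPM in MZrlig1 libraries a, b and c, against 0, 0 and 0 CPM in the wildtype libraries. No read was counted for it in wildtype at shield, and it was at least 116-fold higher in MZrlig1, computed against 3 counts over the wildtype group. In a joint fit of sphere, shield and bud, its wildtype mean was 1.00 CPM at sphere, against 3.01 CPM in MZrlig1. At bud the means were 0 CPM in wildtype and 9.50 CPM in MZrlig1. A further unnamed gene, ENSDARG00000074844, had 31.9, 31 and 24.2 CPM in MZrlig1, against 0.697, 0.641 and 0.829 CPM in wildtype (log2 fold change 5.32, SE 0.27, adjusted p = 2.64e-05). Both rises were called in all 12 alternatives.

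Named genes with the largest rises were at low levels in wildtype. parp9, a member of the poly(ADP-ribose) polymerase family, had 5.67, 7.79 and 11.1 CPM in MZrlig1, against 0.0697, 0.0534 and 0.276 CPM in wildtype (log2 fold change 5.91, SE 0.56, adjusted p = 0.00135). FLNC (ENSDARG00000018820), a filamin that cross-links actin and is best known from muscle, had 28.2, 15.7 and 33.6 CPM in MZrlig1, against 0.767, 0.267 and 1.38 CPM in wildtype. mybpc2b, which encodes a myosin-binding protein of fast muscle, had 7.68, 17 and 7.72 CPM in MZrlig1, against 0.139, 0.16 and 0.968 CPM in wildtype. In these 3 genes the lowest MZrlig1 library was several times as high as the highest wildtype library. The cytosolic sulfotransferase sult2st3 had 8.97, 15.1 and 12.8 CPM in MZrlig1, against 0.837, 0.214 and 0.415 CPM in wildtype (log2 fold change 4.67, SE 0.46, adjusted p = 0.00169), and si:dkey-148n20.1, whose product is not described in the files, had 12.9, 16.2 and 8.54 CPM in MZrlig1, against 0.279, 0.534 and 0.346 CPM in wildtype. Both were called in all 12 alternatives, as were parp9 and FLNC.

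In some of the remaining large rises 1 MZrlig1 library stood apart. GRIK1 (ENSDARG00000040627), a glutamate receptor subunit, had 1.51, 6.17 and 10.7 CPM in MZrlig1, against 0.418, 0.32 and 0.553 CPM in wildtype, with library a lowest. si:dkey-52d15.3 and si:ch211-212c13.7p were highest in library a, at 44.4 and 33.7 CPM, against a wildtype maximum of 1.87 and 1.44 CPM. In the joint fit, their wildtype means were 0.175 and 0.0256 CPM at sphere and 270 and 130 CPM at bud. Their log2 fold changes at bud were 0.21 and 0.34, and neither passed in that fit. Large rises were also found for FAIM (ENSDARG00000005828), an inhibitor of cell death (log2 fold change 3.91, SE 0.54, adjusted p = 0.00582), SNCG (ENSDARG00000034423), a synuclein (log2 fold change 4.43, SE 0.81, adjusted p = 0.0225), and si:ch211-261a10.5 (log2 fold change 5.58, SE 0.76, adjusted p = 0.00543). SNCG passed in only 4 of the 12 alternatives.

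Most named genes with the largest falls had at most a few CPM in every MZrlig1 library, among them the 3 that follow. sytl1, a synaptotagmin-like protein that tethers vesicles, had 0.144, 0.956 and 1.3 CPM in MZrlig1, against 17.5, 17.6 and 19.3 CPM in wildtype (log2 fold change −4.47, SE 0.50, adjusted p = 0.0023). NDRG1 (ENSDARG00000010420), a stress-responsive gene, had 0.933, 3.45 and 2.06 CPM in MZrlig1, against 27.2, 25.6 and 25.7 CPM in wildtype. TNNT3 (ENSDARG00000030270), a troponin T of fast skeletal muscle, had 0.861, 0.515 and 1.35 CPM in MZrlig1, against 10.4, 9.29 and 13.4 CPM in wildtype. In each of the 3 genes the highest MZrlig1 library stayed below the lowest wildtype library several times over.

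zgc:110216 had the smallest adjusted p of the named falls. It had 7.75, 6.91 and 6.89 CPM in MZrlig1, against 92.6, 67 and 79.9 CPM in wildtype, a log2 fold change of −3.47 with an SE of 0.20 and an adjusted p of 4.35e-05. si:dkey-6f10.4 was as even, with 5.1, 6.54 and 5.3 CPM in MZrlig1, against 48.2, 42.5 and 42 CPM in wildtype (log2 fold change −2.97, SE 0.20, adjusted p = 0.00021). The integrin subunit gene ITGA10 (itga10) had 0.79, 0.588 and 0.766 CPM in MZrlig1, against 6.9, 7.37 and 6.01 CPM in wildtype. The clone-named pair si:ch73-44m9.3 and si:ch73-44m9.1 both fell, with log2 fold changes of −5.23 and −3.28. zgc:194221, zgc:194285, si:dkeyp-79b7.13, the netrin gene ntn5 and the unnamed ENSDARG00000101172 and ENSDARG00000077706 fell as well, by log2 fold changes of −3.84, −3.17, −2.71, −3.60, −4.24 and −1.94. Of the 12 named falls, 10 were called in every alternative and ntn5 (adjusted p = 0.0378) and si:dkeyp-79b7.13 were not; of the unnamed pair, ENSDARG00000077706 was not.

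**Figure D2:**
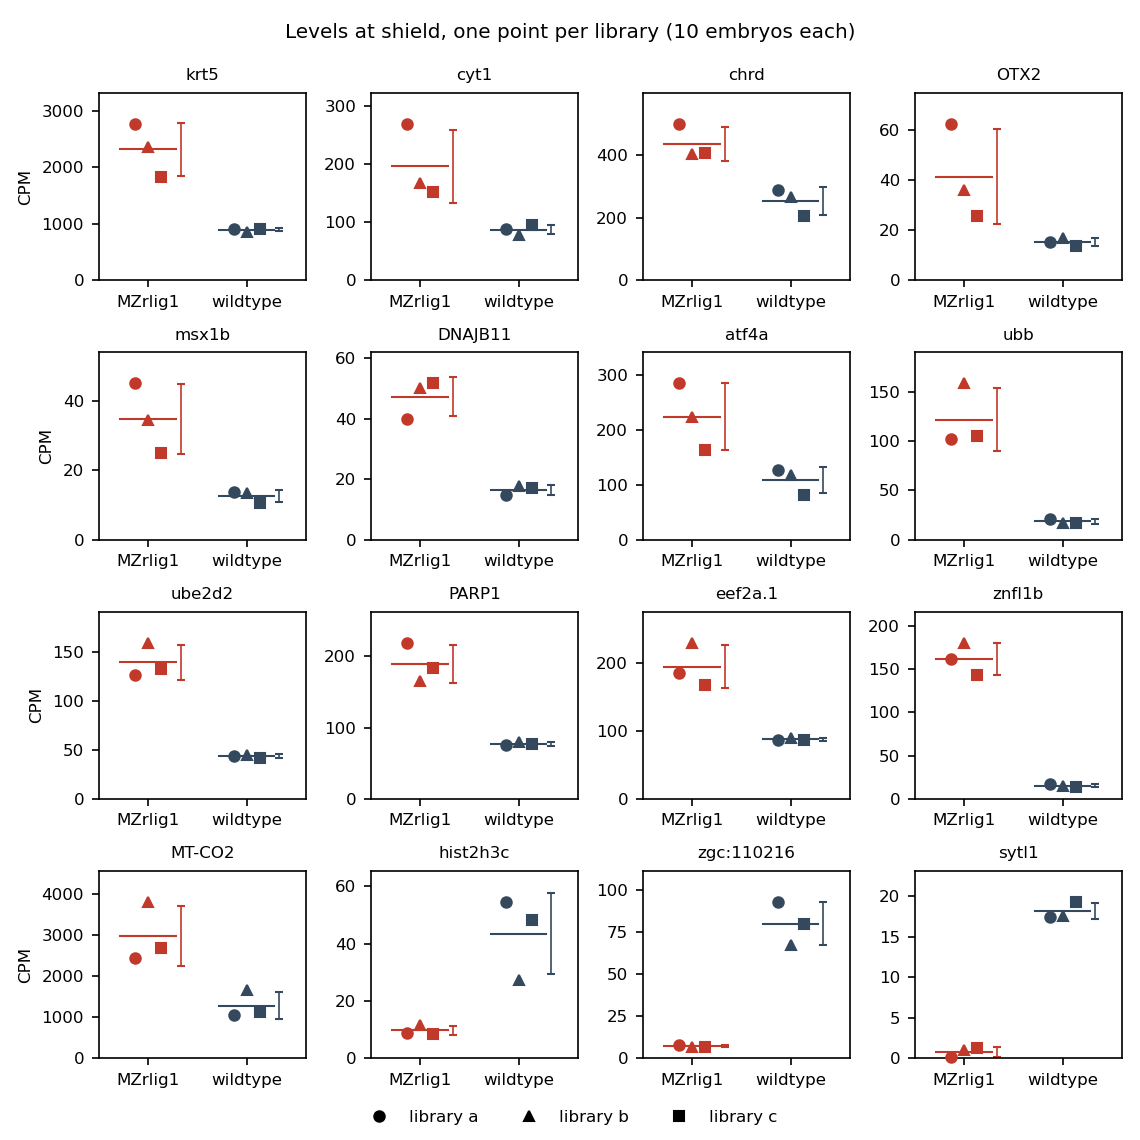
CPM at shield for 16 genes, with MZrlig1 at the left and wildtype at the right of each panel; symbols mark libraries a, b and c, the horizontal line is the mean and the bar beside it the SD (n = 3). No panel has overlapping groups; hist2h3c, zgc:110216 and sytl1 were lower in MZrlig1 and the other 13 genes higher, and library a was highest of all 6 for krt5, cyt1, chrd, OTX2, msx1b, atf4a and PARP1.

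Enveloping layer genes stood higher in MZrlig1. Of 18 tested, 4 rose (22.2% called, against 3.84% of all genes) and none fell. Of these 18, 14 had a fold change above 0, and the median log2 fold change was 0.57, against 0.02 over all genes. The type II keratin gene krt5 had 2769, 2366 and 1835 CPM in MZrlig1 libraries a, b and c, against 911, 863 and 913 CPM in the wildtype libraries (log2 fold change 1.38, SE 0.15, adjusted p = 0.0023). cyt1 and cyt1l, type I keratins of the surface layer, had 268, 166 and 152 CPM in MZrlig1, against 88.2, 77.9 and 94.1 CPM in wildtype for cyt1, and 348, 249 and 201 CPM in MZrlig1, against 145, 128 and 149.8 CPM in wildtype for cyt1l. anxa1c, an annexin, had 129, 122 and 78.6 CPM in MZrlig1, against 55.2, 53.4 and 54.3 CPM in wildtype. In each of these 4 genes MZrlig1 library a was highest and library c lowest, yet library c still exceeded every wildtype library.

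Other keratins and surface genes gave smaller differences. krt97, a keratin outside the list, also rose, with 1406, 1287 and 907 CPM in MZrlig1, against 729, 711 and 659 CPM in wildtype (log2 fold change 0.78, SE 0.16, adjusted p = 0.0312). krt4 (log2 fold change 0.54), the periplakin gene PPL (0.60) and the envoplakin gene evpla (0.43) had separated groups but were not called, while grhl3, a transcription factor of the layer, was at −0.25 and the claudin gene cldne at −0.03. The summed level of the 18 genes was 17651, 16393 and 12471 CPM in MZrlig1 libraries a, b and c, against 11997, 11243 and 10998.1 CPM in wildtype. In the joint fit, wildtype krt5 averaged 5.01, 1006 and 2868 CPM at sphere, shield and bud, and wildtype cyt1 0.498, 97.2 and 806 CPM. In RNA from whole embryos, more cells of a type, more RNA per cell and a later stage of a pool cannot be told apart. All 4 calls held without MZrlig1 library a. In the list, 2 genes were called without MZrlig1 library b, 10 without MZrlig1 library c and 1 or 2 without any 1 wildtype library. Of all genes tested, those fits called 2.95%, 4.57% and 0.548% to 1.13%. In the edgeR fit over every whole-embryo library (leaving out MZrlig1 a of 1 dpf), none of the 4 genes was called. The adjusted p in that fit was 0.331 for krt5, 0.207 for cyt1 and 0.455 for cyt1l. krt97 was not called there either (adjusted p = 0.633), and passed in 6 of the 12 alternatives.

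Dorsal organizer genes were also mostly higher: of 17 tested, 3 rose (17.6% called, against 3.84% of all genes) and none fell. Of the 17, 12 were above 0 and the median was 0.41. chrd, which encodes the BMP antagonist chordin, had 499, 403 and 407 CPM in MZrlig1 libraries a, b and c, against 288, 267 and 204 CPM in the wildtype libraries (log2 fold change 0.79, SE 0.16, adjusted p = 0.0273). OTX2 (otx2b), a head and anterior neural transcription factor, had 62.5, 36.2 and 25.8 CPM in MZrlig1, against 15.1, 16.8 and 13.8 CPM in wildtype (log2 fold change 1.44, SE 0.30, adjusted p = 0.0313). FOXD3 (foxd3), a transcription factor active in the organizer and later in neural crest, had 84.9, 85.2 and 76.9 CPM in MZrlig1, against 56.5, 53.2 and 47 CPM in wildtype. Library a was the highest MZrlig1 library for chrd and OTX2, and no groups overlapped. Of the organizer genes that were not called, SHH (ENSDARG00000068567), a midline signal, was at a log2 fold change of 1.94 (adjusted p = 0.0531), FOXA2 at 0.98, the Wnt antagonist gene frzb at 0.71 and noto, of the notochord, at 0.53, all with separated groups. Goosecoid (GSC) was at 0.20, and lhx1a and sebox were at −0.66 and −0.74. Leaving out any 1 wildtype library left no organizer gene called, against 0.548% to 1.13% of all genes tested. In the edgeR fit over every whole-embryo library (leaving out MZrlig1 a of 1 dpf), OTX2 was called. There chrd (adjusted p = 0.398) and FOXD3 (adjusted p = 0.145) were not. FOXD3 was not called with the replicate block either, and passed in 6 of the 12 alternatives.

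BMP and ventral genes held 1 called gene of 33 (3.03%, near the 3.84% of all genes). msx1b, a homeobox gene of the ventral and neural plate border ectoderm, had 45.1, 34.6 and 25 CPM in MZrlig1, against 13.7, 13.3 and 10.6 CPM in wildtype (log2 fold change 1.48, SE 0.25, adjusted p = 0.0128). The ligands BMP4 (−0.10) and bmp7a (−0.29) and the ventral repressors vox (−0.15) and ved (0.15) had small log2 fold changes that were not called. Pluripotency and ectoderm factors held 2 called genes of 18 (11.1%, against 3.84% of all genes), both higher. DLX3 (dlx3b), of the preplacodal border, had 38.9, 14.5 and 11.2 CPM in MZrlig1, against 4.46, 7.37 and 4.84 CPM in wildtype. DLX3 was at the edge of the threshold (adjusted p = 0.0497) and was not called with DESeq2 size factors. pou5f3, required for genome activation, was at −0.39, nanog at 0.25 and sox19b at 0.55, none called.

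No gene of the Nodal (18 tested), Wnt (26), FGF (20) or mesoderm and endoderm lists (23) was called by edgeR. The DESeq2 Wald test called 1, 7, 1 and 4 of them, all higher, against 1234 of all 14903 genes (8.28%). In the edgeR test 4, 11, 3 and 7 had an unadjusted p under 0.05, against 2832 of all 14903 genes. The Nodal ligand gene ndr1 had 3.02, 13 and 6.3 CPM in MZrlig1, against 8.09, 6.25 and 8.02 CPM in wildtype, and the Nodal effector foxh1 had 321, 462 and 377 CPM in MZrlig1, against 429.6, 475 and 438 CPM in wildtype. The groups overlapped for both genes, as they did for the Wnt ligand gene wnt11f2 (log2 fold change 0.05). Of the 23 mesoderm and endoderm factors, 8 had separated groups, as did 26.1% of all genes tested. Among the mesoderm factors that overlapped, tbxta had 538, 692 and 607 CPM in MZrlig1, against 624, 629 and 572 CPM in wildtype, and tbx16 had 644, 848 and 769 CPM in MZrlig1, against 736, 793 and 795 CPM in wildtype. β-catenin (CTNNB1) was at 0.14, fgfr4 at 0.26 and the FGF target etv5b at 0.04. tbx6, of the paraxial mesoderm, had separated groups with 21.4, 2.79 and 4.42 CPM in MZrlig1, against 0.976, 2.08 and 2.21 CPM in wildtype (log2 fold change 2.43, adjusted p = 0.11), as did tbx16l (0.83) and msgn1 (0.69), none of them called. The Wnt list had 22 of 26 genes above 0 with a median of 0.35, and without MZrlig1 library c 4 of its genes were called higher. That fit called 400 of all 15431 genes tested higher. A p that missed the threshold does not show that these genes were equal in the genotypes.

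**Figure D3:**
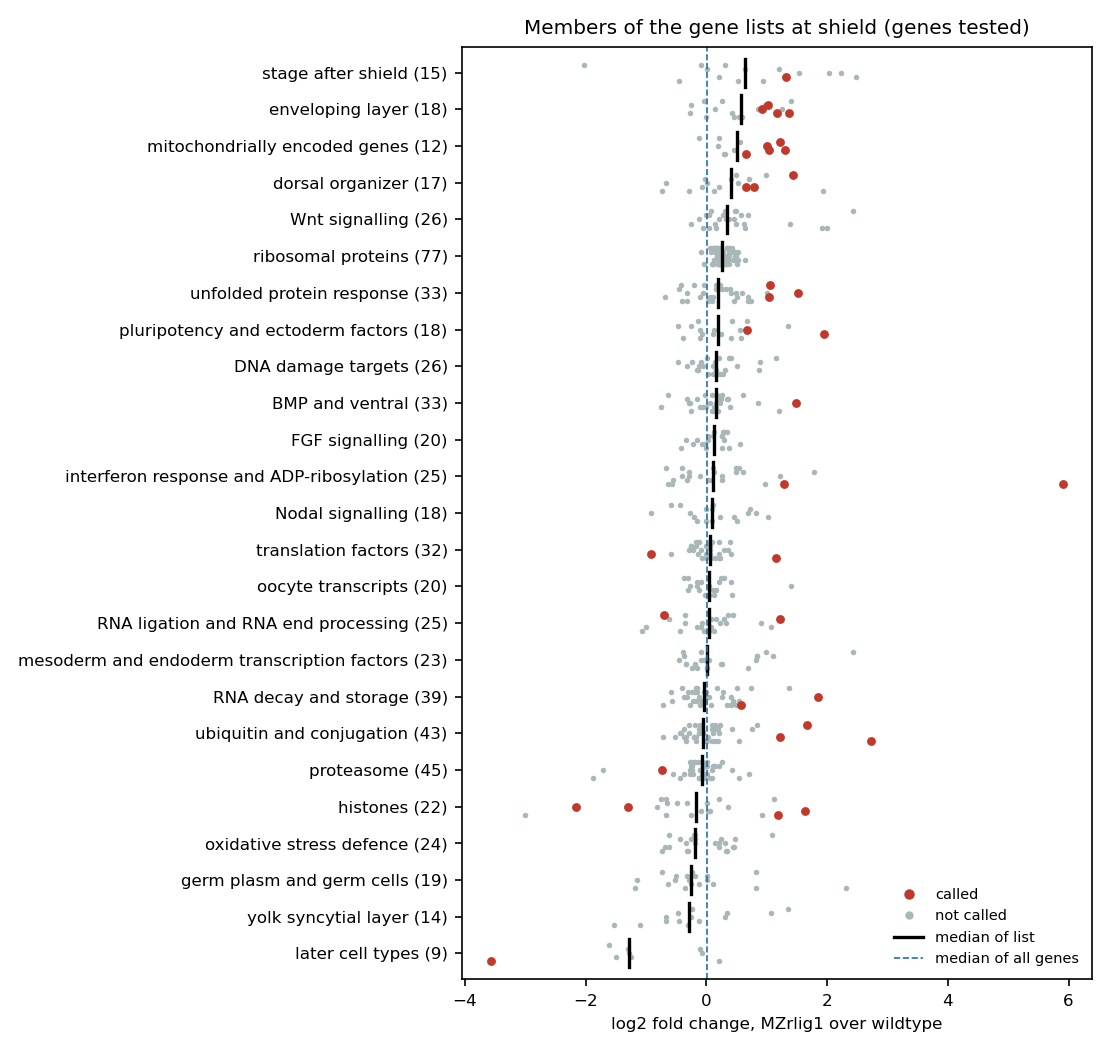
Log2 fold change of MZrlig1 over wildtype for every tested member of the 25 lists, ordered by median; red points are called genes, grey points not called, black bars the list medians and the dashed line the median of all 14903 genes, 0.02. RLIG1, at −7.64, lies outside the drawn range. Genes of the stage after shield, the enveloping layer and the mitochondrial genome have the highest medians (0.63, 0.57 and 0.51) and later cell types the lowest, −1.28, in a list where wildtype library c stood apart.

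Genes of RNA ligation and RNA end processing held 3 called members of 25 (12%, against 3.84% of all genes), RLIG1 itself among them. ELAC1 (elac1), a nuclease of tRNA ends, had 48.2, 67.7 and 64.6 CPM in MZrlig1 libraries a, b and c, against 30, 22.6 and 24.5 CPM in the wildtype libraries (log2 fold change 1.23, SE 0.20, adjusted p = 0.0101). ANGEL2 (angel2), which in human cells removes cyclic phosphates from RNA ends, had 59, 74.8 and 71.2 CPM in MZrlig1, against 112, 116 and 105 CPM in wildtype (log2 fold change −0.70, SE 0.15, adjusted p = 0.032). ELAC1 thus rose and ANGEL2 fell, both with separated groups. The tRNA ligase RTCB had 3.52, 3.75 and 1.94 CPM in MZrlig1, against 3.77, 2.19 and 2.97 CPM in wildtype, a log2 fold change of 0.04 with an SE of 0.38, and its partner DDX1 had 2.66, 1.62 and 7.36 CPM in MZrlig1, against 1.26, 1.98 and 2.35 CPM in wildtype (log2 fold change 1.06, adjusted p = 0.329). RTCA, the RNA cyclase, was at −0.07. None of these 3 was called.

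RNA decay and storage genes held 2 called members of 39 (5.13%, near the 3.84% of all genes), both RNA-binding proteins. rbms2a had 23.3, 16.4 and 19 CPM in MZrlig1, against 3.7, 6.03 and 6.57 CPM in wildtype (log2 fold change 1.84, SE 0.28, adjusted p = 0.00764), and IGF2BP3 (igf2bp3), which binds maternal mRNA in zebrafish, had 260.3, 275 and 277 CPM in MZrlig1, against 178, 191 and 178 CPM in wildtype (log2 fold change 0.57, SE 0.12, adjusted p = 0.0285). The deadenylase subunit CNOT1 was at −0.10, the decapping enzyme DCP2 at 0.08 and the exonuclease XRN1 at −0.40, none called. The maternal-stage lists gave no edgeR call: germ plasm (19 tested) and oocyte transcripts (20) had medians of −0.25 and 0.05, 5 and 1 genes with an unadjusted p under 0.05, and 1 and 0 calls by DESeq2. Over all 14903 genes, 2832 had such a p and DESeq2 called 8.28%. DDX4 (vasa) had 205, 272 and 274 CPM in MZrlig1, against 328, 317 and 312 CPM in wildtype. The oocyte-type linker histone h1m had 74.3, 291 and 264 CPM in MZrlig1, against 224, 188 and 196 CPM in wildtype, so MZrlig1 library a was lowest of the 6 and the other 2 MZrlig1 libraries were highest. The summed oocyte list was 1402, 2344 and 2202 CPM in MZrlig1 libraries a, b and c, against 1984, 1864 and 1820 CPM in wildtype.

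Ubiquitin genes held 3 called genes of 43 (6.98%, against 3.84% of all genes), all higher, while the list median was −0.05. ubb had 102, 158 and 104 CPM in MZrlig1 libraries a, b and c, against 21.3, 17 and 17 CPM in the wildtype libraries (log2 fold change 2.72, SE 0.22, adjusted p = 0.000575), and UBB (ENSDARG00000002369), a second polyubiquitin locus, had 284, 377 and 311 CPM in MZrlig1, against 159.6, 129 and 129 CPM in wildtype (log2 fold change 1.22, SE 0.15, adjusted p = 0.0039). ube2d2, a ubiquitin-conjugating enzyme, had 126, 159 and 132 CPM in MZrlig1, against 43.7, 45.1 and 41.7 CPM in wildtype (log2 fold change 1.67, SE 0.15, adjusted p = 0.000927). In each of these 3 genes MZrlig1 library b was highest, and each was called in all 12 alternatives. The third polyubiquitin gene, ubc, had 1422, 1268 and 1398 CPM in MZrlig1, against 1734, 2063 and 1746 CPM in wildtype, a log2 fold change of −0.44 that was not called. Ubiquitin loci consist of near-identical repeats, and how reads shared between copies were counted is not given in the sources used here, so their split is uncertain. Proteasome genes (45 tested) held 1 call (2.22%, under the 3.84% of all genes), the regulatory subunit gene PSMD1 (psmd1), lower at 159, 123 and 146 CPM in MZrlig1, against 262, 224 and 230.4 CPM in wildtype.

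PARP1 (parp1), which attaches poly(ADP-ribose) at DNA breaks, had 219, 166 and 183 CPM in MZrlig1, against 75, 80 and 76.7 CPM in wildtype (log2 fold change 1.29, SE 0.15, adjusted p = 0.0023). Together with parp9 it made up the 2 called genes of 25 in the interferon and ADP-ribosylation list (8%, against 3.84% of all genes). Both were called in all 12 alternatives. The interferon targets isg15 and mxa, with log2 fold changes of 0.54 and −0.58, were not called. DNA damage targets were not called either: of 26 genes of the DNA damage list none passed by edgeR, 3 had an unadjusted p under 0.05 and 1 was called by DESeq2, with mdm2 at a log2 fold change of 0.32 and cdkn1a at 0.88. Without MZrlig1 library a, 3 genes of this list were called higher, against 419 of all 15444 genes tested in that fit. Oxidative stress defence genes (24 tested) had no edgeR call, 7 genes with an unadjusted p under 0.05, 2 calls by DESeq2 and a median of −0.18. For both lists the background was 2832 of 14903 genes with such a p and 8.28% called by DESeq2.

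The unfolded protein response list held 3 called genes of 33 (9.09%, against 3.84% of all genes), all higher. DNAJB11 (dnajb11), a cochaperone of the endoplasmic reticulum, had 39.8, 50.1 and 51.7 CPM in MZrlig1 libraries a, b and c, against 14.7, 17.8 and 16.9 CPM in the wildtype libraries (log2 fold change 1.52, SE 0.19, adjusted p = 0.00375). PDIA6 (pdia6), a disulfide isomerase, had 141, 187 and 138 CPM in MZrlig1, against 84.1, 66.6 and 75.7 CPM in wildtype (log2 fold change 1.04, SE 0.17, adjusted p = 0.0104). atf4a, a transcription factor of the integrated stress response, had 284, 224 and 164 CPM in MZrlig1, against 126, 117 and 81.6 CPM in wildtype (log2 fold change 1.05, SE 0.23, adjusted p = 0.034). DNAJB11 was called in every alternative, PDIA6 in 10 of 12 and atf4a in 6. Widely used indicators of the response were not called: HSPA5, the chaperone BiP, had 176, 186 and 161 CPM in MZrlig1, against 171, 135 and 149 CPM in wildtype, XBP1 was at 0.33, HERPUD1 at 0.26 and DDIT3 at 1.01. The sensor kinase genes ern1 and EIF2AK3 pointed apart, at 0.73 and −0.69, and neither was called.

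Translation factors held 1 higher and 1 lower gene of 32 (6.25% called, against 3.84% of all genes). eef2a.1, an elongation factor, had 186, 229 and 168 CPM in MZrlig1, against 87, 89.9 and 86.1 CPM in wildtype (log2 fold change 1.15, SE 0.15, adjusted p = 0.00446), while its paralogues eef2a.2 and eef2b were at −0.59 and −0.09 and not called. EIF3J (ENSDARG00000012603) had 47.7, 46.3 and 45 CPM in MZrlig1, against 83, 97.9 and 82.8 CPM in wildtype (log2 fold change −0.92, SE 0.15, adjusted p = 0.0101), and the other gene of that name in the files was at 0.30, not called. Of 77 ribosomal protein genes none was called by edgeR, 12 had an unadjusted p under 0.05 and 1 was called by DESeq2, while 75 had a log2 fold change above 0, with a median of 0.26. Among all 14903 genes, 2832 had such a p and DESeq2 called 8.28%. RPL3 had 885, 1184 and 730.2 CPM in MZrlig1, against 833, 727 and 743 CPM in wildtype, so MZrlig1 library c was within the wildtype range. Without MZrlig1 library c, 4 ribosomal protein genes were called higher, against 400 of all 15431 genes tested in that fit.

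Mitochondrially encoded genes, a list drawn up after the values were seen, rose in 5 of 12 (41.7% called, against 3.84% of all genes). MT-CO1, a subunit of cytochrome c oxidase, had 9393, 13288 and 10523 CPM in MZrlig1 libraries a, b and c, against 4801, 6557 and 5156 CPM in the wildtype libraries (log2 fold change 1.01, SE 0.17, adjusted p = 0.0122). MT-CO2 had 2449, 3812 and 2689.6 CPM in MZrlig1, against 1054, 1659 and 1138 CPM in wildtype and MT-CYB, of the cytochrome bc1 complex, had 2609, 3435 and 3238 CPM in MZrlig1, against 1220.1, 1959.9 and 1346 CPM in wildtype. MT-CO3 and MT-ND3 rose as well, with log2 fold changes of 0.65 and 1.31. MT-ATP6 was at −0.13 and MT-ND1 at 0.30, neither called. All mitochondrially encoded genes together took 2.21, 2.77 and 2.61% of the counts in MZrlig1 libraries a, b and c, against 1.26, 1.91 and 1.35% in wildtype. None of the 5 was called without wildtype library a or c.

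Histone genes, also listed after the values were seen, changed in both directions. Of 22, 2 were called higher and 2 lower (18.2% called, against 3.84% of all genes). h2ax1 had 246, 391 and 237 CPM in MZrlig1, against 109.7, 67.4 and 105 CPM in wildtype (log2 fold change 1.63, SE 0.24, adjusted p = 0.00733), and hist2h2l had 14.2, 17.7 and 12 CPM in MZrlig1, against 6.97, 5.82 and 6.57 CPM in wildtype. hist2h3c had 8.97, 11.6 and 8.48 CPM in MZrlig1, against 54.5, 27.4 and 48.4 CPM in wildtype (log2 fold change −2.16, SE 0.28, adjusted p = 0.00419), and hist1h2a3 had 5.03, 4.85 and 4.18 CPM in MZrlig1, against 12.3, 7.8 and 14.3 CPM in wildtype. h2ax1 and hist2h3c thus moved in opposite directions with separated groups. Copies of a histone type are nearly identical and most of their mRNA lacks a poly(A) tail, so the split between copies is uncertain.

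Of the genes of later cell types, 9 were tested, with a median of −1.28. The summed level of these 9 was 624, 515 and 377 CPM in MZrlig1 libraries a, b and c, against 499.9, 358 and 861 CPM in wildtype. The muscle actin gene actc1b had 98.9, 8.97 and 14.1 CPM in MZrlig1, against 1.88, 2.88 and 286 CPM in wildtype, so the groups overlapped. TNNT3 (ENSDARG00000030270) was the 1 called gene of the list (11.1%, against 3.84% of all genes), and it was also called without wildtype library c. Yolk syncytial layer genes (14 tested) had no edgeR call, 2 genes with an unadjusted p under 0.05, 1 call by DESeq2 and a median of −0.28, with a summed level of 1211 to 2210.2 CPM in MZrlig1 and 1544 to 1964 CPM in wildtype. Among all 14903 genes, 2832 had an unadjusted p under 0.05 and DESeq2 called 8.28%.

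The stage reached by each pool was then set against the wildtype course. A developmental position was computed from 500 genes rising and 500 falling in wildtype between sphere and bud, the stages before and after shield, with wildtype sphere at 0 and wildtype bud at 1. MZrlig1 libraries a, b and c lay at 0.728, 0.562 and 0.519, against 0.519, 0.545 and 0.560 in wildtype. MZrlig1 library a was thus ahead of the other 5, which overlapped. The means were 0.603 ± 0.110 in MZrlig1 and 0.541 ± 0.0205 in wildtype (SD, n = 3 each), a difference of 0.0620 with an exact two-sided permutation p of 0.5; 3 against 3 cannot go below 0.1. Without MZrlig1 library a the difference was −0.000506.

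Genes that mark the stage after shield had 15 tested members, of which 1 rose (6.67% called, against 3.84% of all genes). Of the 15, 12 were above 0 and the median was 0.63. SIX3 (ENSDARG00000054879), a forebrain transcription factor, had 11.3, 10.4 and 7.48 CPM in MZrlig1, against 3.91, 3.36 and 4.35 CPM in wildtype (log2 fold change 1.32, SE 0.27, adjusted p = 0.03). SIX3 passed in 7 of the 12 alternatives, and was not called whichever wildtype library was left out. MYF5, a muscle determination factor, had 11.3, 3.68 and 2.95 CPM in MZrlig1, against 1.6, 1.5 and 1.24 CPM in wildtype, and hoxb1b, of the hindbrain, had 14.4, 3.9 and 2.47 CPM in MZrlig1, against 1.05, 2.03 and 0.553 CPM in wildtype, neither called. Library a was the highest MZrlig1 library for all 3 genes.

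The called genes differed in what they do in wildtype. Of 282 called higher genes that could be followed in wildtype libraries of sphere and bud, none of which entered the shield comparison, 173 (61.3%) rose and 49 (17.4%) fell between these stages. Of 252 called lower genes, 67 (26.6%) rose and 102 (40.5%) fell. Over all genes tested at shield the shares were 34.5% and 34.0%. Without MZrlig1 library a, called higher genes rose in 43.6% and fell in 38.4%, and called lower genes rose in 35.9% and fell in 33.1%. Library a was the MZrlig1 library farthest from wildtype for 270 of the 573 genes, library b for 184 and library c for 119. Among called higher genes, 84.9% of those farthest in library a rose in the wildtype course, against 39.8% of those farthest in library b and 15.6% of those farthest in library c. These shares describe the genes and carry no test.

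**Figure D4:**
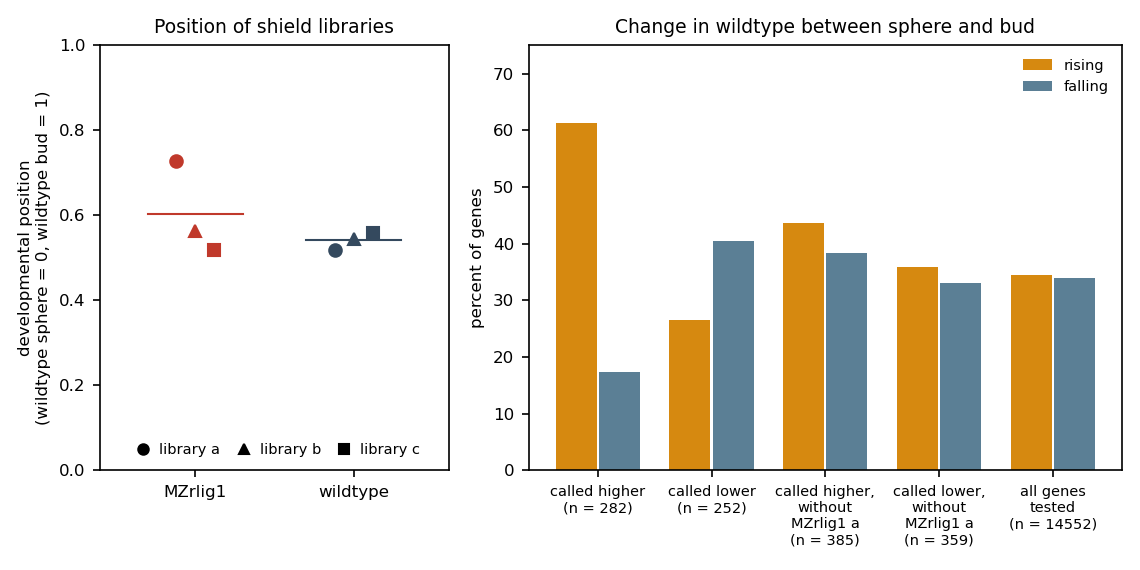
Left, developmental position of each shield library, with wildtype sphere at 0 and wildtype bud at 1; symbols mark libraries a, b and c and lines the means. Right, percent of called higher, called lower and all tested genes that rose or fell in wildtype between sphere and bud, with all libraries and without MZrlig1 library a; library a lies at 0.728, and without it the share of rising genes among called higher genes is 43.6% in place of 61.3%.

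Fits of MZrlig1 against wildtype at the other stages share no library with shield, and each called part of the shield genes. At sphere, with 2 libraries of each genotype, 141 of 252 called higher genes were called higher (56.0%, against 18.8% of all genes tested there) and 108 of 239 called lower genes were called lower (45.2%, against 17.2%). These were 4.96% of the 2844 genes called higher at sphere and 4.17% of the 2589 called lower there. At bud the counts were 29 of 294 (9.86%, against 0.454%) and 25 of 209 (11.96%, against 0.36%), which were 40.3% of the 72 and 43.9% of the 57 genes called there. At the 4-cell stage, before the zygotic genome is active, they were 45 of 186 (24.2%, against 1.55%) and 37 of 167 (22.2%, against 1.62%), or 22.5% of 200 and 17.7% of 209 genes called there. At 1 dpf, without MZrlig1 library a of that stage, 28 of 283 and 23 of 222 were called the same way, and at 5 dpf 29 of 264 and 20 of 218, with 0.442%, 0.592%, 0.65% and 0.371% of all genes called in the same 4 cases. Calls in the opposite direction numbered 20 of 252 and 8 of 239 at sphere. At each other stage they numbered at most 3 of the called higher or called lower genes.

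Whether the genotype effect differed between stages was tested with edgeR in 1 fit of sphere, shield and bud. The effect at shield minus that at sphere passed for 477 of 18808 genes (2.54%), and minus that at bud for 140 (0.744%). Of the 314 called higher genes, 77 differed from sphere, 73 of them with the larger rise at shield, and 72 differed from bud, 71 with the larger rise at shield. Of the 259 called lower genes, 30 differed from sphere and 23 from bud, of which 28 and 23 had the larger fall at shield. The shield libraries enter both contrasts, and the same libraries chose the called genes, so these directions are given as counts only. Leaving out 1 wildtype shield library left 33 to 45 genes that differed from bud, and leaving out MZrlig1 library c gave 396.

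Some genes had a fold change above 0 at all 3 stages. Values below come from the joint fit, with SD over 3 libraries per genotype (2 at sphere). ubb averaged 78.5 ± 2.86 CPM in MZrlig1 and 3.12 ± 0.864 CPM in wildtype at sphere, 138 ± 37.2 CPM in MZrlig1 and 20.7 ± 2.98 CPM in wildtype at shield and 72.2 ± 22.1 CPM in MZrlig1 and 15.1 ± 2.42 CPM in wildtype at bud, log2 fold changes of 4.65, 2.74 and 2.26. The difference between shield and sphere was −1.91 (SE 0.39, adjusted p = 0.0177), so the rise was larger at sphere. PARP1 had log2 fold changes of 0.79, 1.31 and 1.08, with differences from shield of 0.52 (SE 0.18, adjusted p = 0.15) for sphere and 0.22 (SE 0.16, adjusted p = 0.553) for bud. The effect on krt5 was larger at sphere, with log2 fold changes of 3.91, 1.39 and 0.66 and a difference between shield and sphere of −2.52 (SE 0.33, adjusted p = 0.00129).

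Other effects had their largest value at shield. parp9 averaged 26.9 ± 4.52 CPM in MZrlig1 and 9.83 ± 0.556 CPM in wildtype at sphere, 9.27 ± 3.01 CPM in MZrlig1 and 0.147 ± 0.133 CPM in wildtype at shield and 6.77 ± 0.239 CPM in MZrlig1 and 3 ± 0.844 CPM in wildtype at bud. Its difference between shield and sphere was 4.49 (SE 0.60, adjusted p = 0.00131) and that between shield and bud 4.77 (SE 0.56, adjusted p = 0.00146). Wildtype parp9 was thus lowest at shield among the 3 stages. DNAJB11 had log2 fold changes of 0.57, 1.53 and 0.18, with a difference between shield and bud of 1.35 (SE 0.20, adjusted p = 0.00648). For chrd the values were 0.03, 0.80 and −0.06, but neither difference passed, at 0.76 (SE 0.28, adjusted p = 0.173) and 0.86 (SE 0.25, adjusted p = 0.124).

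**Figure D5:**
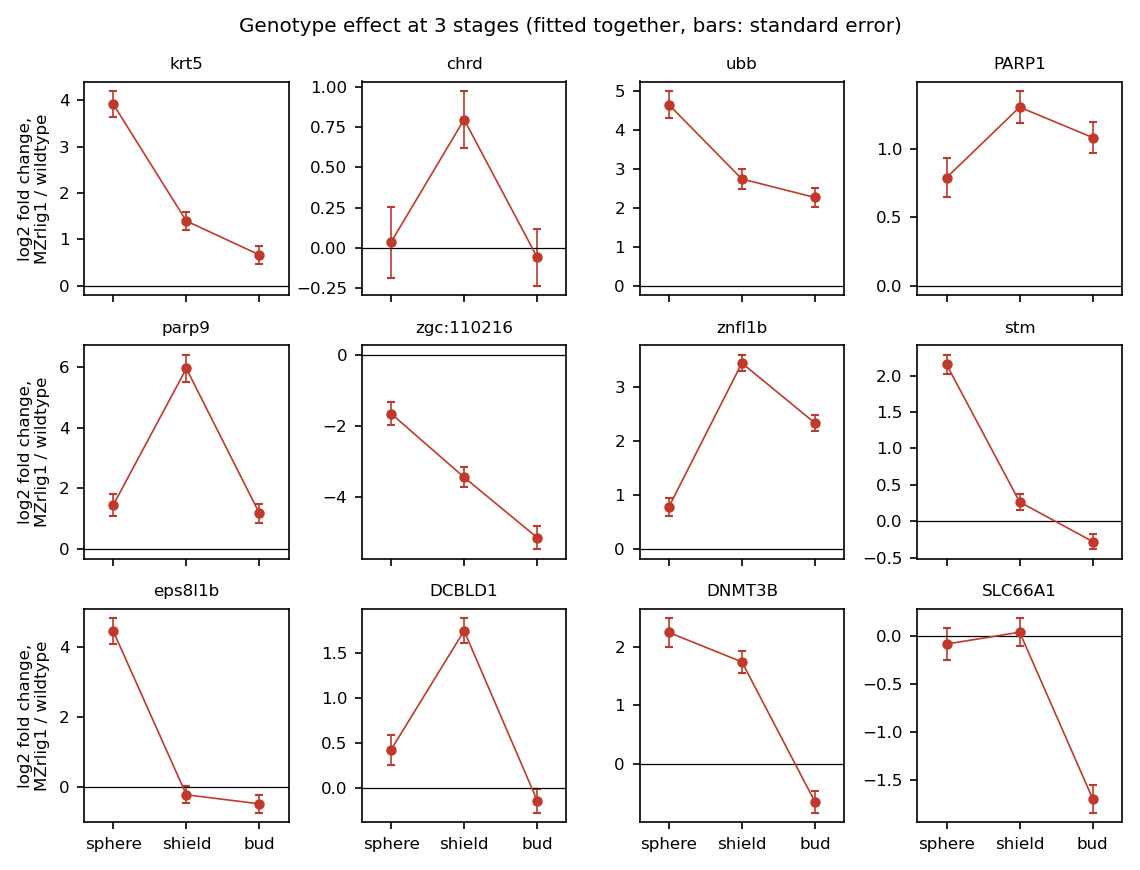
Log2 fold change of MZrlig1 over wildtype with its standard error at sphere, shield and bud, from 1 fit of the 3 stages (2 libraries per genotype at sphere, 3 at shield and bud). In size, krt5, ubb, stm, eps8l1b and DNMT3B have their largest value at sphere, and parp9, znfl1b, DCBLD1, PARP1 and chrd at shield. zgc:110216 and SLC66A1 have it at bud, both below 0. Vertical scales differ between panels.

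The order of genes along chromosomes was read from RefSeq (GRCz12tu), which names 10777 of the tested and 355 of the called genes; no position is given because the counts rest on another build. The share of called genes per chromosome lay between 0.664% and 7.19% over 25 chromosomes. On the chromosome of rlig1, 20 of 355 genes were called (5.63%, against 3.29% of all matched genes). Of the 50 genes nearest to rlig1 none was called, and of the 100 nearest 3 were. Among the 5 tested genes to each side of a called gene, 7.18% were called (254 of 3540 neighbours). A pair of called neighbours enters this count from both sides. In 166 of these 254 both genes moved the same way. Of all called genes 54.8% were higher, which is a share of genes and not of pairs that moved alike. No test was run on these shares.

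The longest run of neighbouring calls held 7 genes, 3 higher and 4 lower, with zgc:194285 and MGST2, a glutathione transferase, among the falls and cabp2b among the rises. A run of 5 falls was made of zgc:114046, the histone gene hist2h3c, zgc:162611, zgc:194989 and si:ch73-36p18.4. krt5 lay in a run with LAMA5 and OSBPL2, which rose, and ACSS2, which fell. PARP1 and DCBLD1 stood in 1 run of 4 calls, 3 of them rises.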

How the data were processed

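RNA sequencing libraries of pooled whole embryos were analysed from the read count table that the authors deposited, which lists 37241 genes, 32520 of them with values. The FPKM values that the authors deposited beside the counts were read but enter no test and no printed value. The submitters' processing notes name STAR 2.7.10b, Salmon 0.14.1, DESeq2 1.42.1 and the build GRCz11; their roles, the annotation, the strand setting and the treatment of reads shared by gene copies are not given in the sources used here. Reads of overlapping or antisense genes therefore cannot be told apart.

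Genotype was the single term of the shield fit over its 6 libraries (R 4.3.3, edgeR 4.0.16 quasi-likelihood test, TMM scaling, filterByExpr, Benjamini-Hochberg adjustment over 14903 genes, threshold 0.05). CPM values carry the TMM scaling, except those of RLIG1 and its limits, which are counts over the library total. The joint fit used 16 libraries of 3 stages. DESeq2 1.42.0 served as an alternative, beside other scaling, no filter, a replicate block, a developmental position term, a fit of all whole-embryo libraries and each replicate left out. Only the shield fit was tested on simulated data, which were drawn with the same spread in both genotypes.

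Genes named by rule are rlig1, 12 named genes per direction by size of change (called, groups apart, at least 5 CPM in the higher genotype), 2 unnamed genes per direction, the 6 called genes of highest mean, up to 4 called members per list (with none called, the 2 of highest mean) and 3 genes per stage contrast. Further list members and the genes named in runs of neighbours were picked after their values were seen. The comparison, its 25 lists and the tests were chosen with earlier results of these data known; 2 lists (mitochondrially encoded genes and histones) and the families of the closing section were drawn up after the values were seen. Kinases and binding proteins that share the ribosomal name pattern were left out of that list. Names follow the deposited table, with the RefSeq symbol in brackets. Some genes that meet these rules are not reported here.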

Additional observations from a re-analysis of the deposited data

Results flagged for a closer look

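The genotype effect of 6 genes, the 3 with the smallest p-values in each contrast of the joint edgeR fit, differed between shield and a neighbouring stage; means are given with their SD over 3 libraries (2 at sphere). znfl1b, a zinc finger-like gene, differed by 2.66 on the log2 scale between shield and sphere: it averaged 183 ± 22.7 CPM in MZrlig1 and 16.9 ± 2.1 CPM in wildtype at shield, and 46.6 ± 6.13 CPM in MZrlig1 and 27.2 ± 3.44 CPM in wildtype at sphere (adjusted p = 7.17e-05). stm, an otolith matrix gene, differed by −1.89 from sphere, with 1862 ± 5.28 CPM in MZrlig1 and 1551 ± 129 CPM in wildtype at shield, and 385 ± 31.1 CPM in MZrlig1 and 86.5 ± 6.16 CPM in wildtype at sphere. eps8l1b, an actin regulator, differed by −4.68 from sphere, with 118 ± 28.9 CPM in MZrlig1 and 136 ± 14.6 CPM in wildtype at shield, and 42.7 ± 15.9 CPM in MZrlig1 and 1.92 ± 0.758 CPM in wildtype at sphere. At shield stm and eps8l1b had log2 fold changes of 0.26 and −0.21 in this fit, and neither was called in the shield comparison.

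DCBLD1 differed by 1.89 between shield and bud, with 130.3 ± 15.7 CPM in MZrlig1 and 38.9 ± 4.43 CPM in wildtype at shield, and 76.9 ± 3.98 CPM in MZrlig1 and 85 ± 6.42 CPM in wildtype at bud. DNMT3B, a DNA methyltransferase, differed by 2.39, with 81.9 ± 14.9 CPM in MZrlig1 and 24.5 ± 2.66 CPM in wildtype at shield, and 72.4 ± 1.99 CPM in MZrlig1 and 113 ± 20.4 CPM in wildtype at bud. SLC66A1, a lysosomal amino acid transporter, differed by 1.74, with 12.9 ± 0.738 CPM in MZrlig1 and 12.6 ± 0.613 CPM in wildtype at shield, and 14.2 ± 2.14 CPM in MZrlig1 and 46 ± 1.98 CPM in wildtype at bud. Groups of 3 libraries are too small for a test of single outlying samples.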

How the results depend on the processing

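In place of 573 genes, the DESeq2 Wald test called 1234 and a fit over every whole-embryo library (leaving out MZrlig1 a of 1 dpf) called 1532, of which 71.1% were higher, against 54.8% in the shield fit. DESeq2 size factors gave 581 calls, no filter 729 and a developmental position term 762. Replicate letters did not pair the samples, with correlations of deviations of −0.20, −0.02 and −0.03 for a, b and c; with the replicate block 301 genes were called at shield. In the contrast with bud, fitting only shield and bud gave 76 in place of 140, and that fit with the replicate block gave 40. Leaving out 1 library gave 85 to 790 calls at shield, 247 to 794 in the contrast with sphere and 33 to 396 in that with bud, with the lowest counts always without a wildtype library. The difference in developmental position ran from −0.000506 without MZrlig1 a to 0.104 without MZrlig1 c. No paired fit was possible for sphere because its genotypes share only 1 replicate letter.

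Of 90 named genes, 67 were called, and 27 of these were called in every alternative. SIX3, msx1b, ANGEL2, PSMD1, EIF3J, IGF2BP3, hist2h2l and hist1h2a3 were among those not called whichever wildtype library was left out. Of the 90, 9 that were not called turned direction under some setting. With the block tbxta was at −0.000104, h1m at −0.15 and CCNG1 at −0.0121. With the position term tbx16 was at 0.0403 and sesn3 at −0.0936, and with every whole-embryo library tbx16 was at 0.0456. With 1 library left out, log2 fold changes ran from −0.0210 to 0.23 for ACVR1B, −0.0120 to 0.0564 for etv5b, −0.13 to 0.0614 for tbx16, −0.0825 to 0.0921 for tbxta, −0.11 to 0.16 for CXCR4, −0.0148 to 0.14 for CCNB1, −0.26 to 0.45 for h1m, −0.16 to 0.0924 for CCNG1 and −0.0894 to 0.22 for sesn3. The cause was not tested. Genes near 1 CPM rest on few reads per library, and differences there may have been below detection.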

Other observations

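The gene families below were drawn up after their values were seen and carry no test as families. Over all genes tested, 2.11% were called higher and 1.74% lower. Of the 8 znfl1 genes, a zinc finger-like family, 6 rose in MZrlig1 and 7 were above 0, with a median log2 fold change of 1.91. znfl1b had 161, 180.1 and 143 CPM in MZrlig1 libraries a, b and c, against 16.9, 14.6 and 13.8 CPM in the wildtype libraries (log2 fold change 3.42, SE 0.17, adjusted p = 2.64e-05), and znfl1i had 108, 91.1 and 68.2 CPM in MZrlig1, against 20.4, 18.7 and 18.5 CPM in wildtype (log2 fold change 2.21, SE 0.20, adjusted p = 0.000927). znfl1l, znfl1c, znfl1g and znfl1h rose by log2 fold changes of 1.91, 2.05, 1.90 and 1.01, while znfl1k was at −0.29, not called. Without MZrlig1 library a, 6 genes of the family were called higher as well, against 419 of all 15444 genes tested in that fit. Members of this family are similar in sequence, and the split of reads between them is uncertain.

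Of 27 genes of fatty acid oxidation, 5 were called lower and none higher, with 17 below and 10 above 0 and a median of −0.23. Among the 10, ETFDH (0.80), HADHB (0.61), CPT1A (0.54) and ETFB (0.20) had separated groups but were not called. ECH1, an isomerase of the pathway, had 18.4, 23.2 and 22.9 CPM in MZrlig1, against 52.4, 47.5 and 47.1 CPM in wildtype (log2 fold change −1.19, SE 0.18, adjusted p = 0.00689). ETFA, which carries electrons from the pathway, had 32.5, 37 and 38.1 CPM in MZrlig1, against 69.1, 74.6 and 67 CPM in wildtype. ACAA1, ACADVL and DECR2 fell by 1.01, 0.67 and 0.72 on the log2 scale. Without MZrlig1 library a, 5 genes of the list were called lower as well, against 371 of all 15444 genes tested in that fit. Sterol synthesis genes (18 tested) lay on both sides, with 11 above and 7 below 0 and a median of 0.10, and SQLE, squalene epoxidase, rose, with 7.83, 7.72 and 7.89 CPM in MZrlig1, against 2.23, 2.72 and 3.32 CPM in wildtype (adjusted p = 0.0198 in the edgeR test).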
